A study of Mus musculus with 12 samples.

Results

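The genes described here are the mouse growth factor and morphogen families named by their symbols: insulin-like growth factors and their binding proteins, FGF, PDGF, VEGF and EGF receptor genes, TGF-beta, activin, follistatin and Smad genes, BMP genes, Wnt, Frizzled, Sfrp and Dkk genes, Notch, Jagged and Delta genes, and Gli genes. A gene was a member if its annotated symbol began with one of these family names and a probe set named it alone. This gave 72 member genes, on 83 probe sets, of 5599 genes on the arrays, and 10 members had several probe sets. The choice used no measured value. Of the 72 members 36 were bright enough to be tested and 36 lay near background. Some symbols matched by their letters only: Bmp1 is a procollagen protease, Fgfbp1 a carrier protein that releases FGFs, Bmp2k a kinase, Tgfb1i1 an adhesion adaptor, Jagn1 a protein of the endoplasmic reticulum, and Fgfr1op2 is named for a fusion partner.

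The samples were 12 pieces of mouse skin taken after a thermal injury, with 3 each at 0 hours, 2 hours, 3 days and 14 days. Total RNA from each was read on an Affymetrix oligonucleotide array. Strain, age, sex and genotype are not given in the labels, which also do not say whether the 0 hours skin had been burnt or whether replicates were separate animals. P-values therefore speak only of the spread among these 12 samples, part or all of which may be technical.

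These families carry signals between the cells of skin. Secreted ligands such as IGF, FGF, PDGF and VEGF bind receptor tyrosine kinases, TGF-beta, activin and BMP ligands act through Smad proteins, Wnt ligands through Frizzled receptors, and Notch receptors through ligands on neighbouring cells, while binding proteins such as the Igfbp, Sfrp and follistatin proteins hold ligands back or carry them. In skin repair they are known for directing the spread of keratinocytes, the growth of vessels, the laying down of matrix by fibroblasts and the cycling of hair follicles.

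Array medians lay between 448.4 and 496.4 signal units. Keratinocyte markers were bright at every time, with a mean log2 intensity of 11.34 to 11.89 over the 0 hours arrays, so the skin label held. In a whole tissue, fewer cells of a type and less RNA per cell cannot be told apart. Markers of several cell types differed between the times. The 17 skeletal muscle markers had a mean log2 intensity of 13.03 to 14.05 at 0 hours, 12.75 to 12.96 at 2 hours, 11.72 to 12.77 at 3 days and 12.27 to 12.75 at 14 days. The 16 monocyte and macrophage markers read 9.51 to 9.67, 9.32 to 10.03, 10.84 to 11.54 and 9.92 to 10.08 at the same times, and all 14 tested rose at 3 days. The 15 hair follicle markers read 8.34 to 9.35, 8.20 to 8.27, 8.10 to 8.22 and 9.71 to 11.12, and 7 of the 10 tested rose at 14 days. The 12 fibroblast markers, Pdgfra among them, read 12.18 to 12.27, 11.90 to 11.99, 12.14 to 12.40 and 12.30 to 12.61, with 3 called lower at 2 hours, 1 higher and 2 lower at 3 days and 3 higher at 14 days. The 10 keratinocyte markers read 11.56 to 11.75 at 2 hours, 11.46 to 11.63 at 3 days and 12.11 to 12.45 at 14 days, when 3 of the 9 tested rose. No marker of these 5 lists was at the floor on all 12 arrays, and the part of the fibroblast and keratinocyte markers in the members' results was not tested. The 7 adipocyte markers read 9.63 to 10.95, 10.47 to 11.10, 9.32 to 10.37 and 9.13 to 10.11 in order of time. Of the 6 tested, 0 were called against 0 hours, and their part in the members' results was not tested. The Gapdh 3′ to 5′ log2 signal ratio, a sign of RNA quality, fell with time, from 1.99 ± 0.29 (SD, n = 3) on the 0 hours arrays to 1.54 ± 0.46 after 2 hours, 0.52 ± 0.50 after 3 days and 0.21 ± 0.08 after 14 days. The beta-actin 3′ to 5′ ratio did not follow it: it was lowest on the 0 hours arrays, at 0.01 ± 0.21, then 0.74 ± 0.54, 0.23 ± 0.11 and 0.35 ± 0.07. Its 3′ to middle ratio had lower means at each later time, with 2.77 ± 0.35, 1.99 ± 0.57, 1.19 ± 1.05 and 1.07 ± 0.23. The part of these ratios in the results that follow was not tested. The array of 0 hours replicate 3 stood furthest from the others, with a mean Spearman correlation of 0.791 over the tested genes.

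Near background means that no probe set of the gene was above the median of all values (475.55 signal units) on at least 3 arrays. This held for 50% of members, against 37.9% of all genes. Of the 36 such members, 26 were above that median on no array and 10 on 1 or 2 arrays. Values under the 25th percentile of all values (225.375) were set to that floor, and 7 members were at the floor on all 12 arrays: Bmp2, Bmp2k, Dkk2, Fgf13, Inhbb, Smad5 and Wnt10b. The other 29 were Bmp8a, Bmpr1a, Bmpr2, Dll1, Egfr, Ereg, Fgf11, Fgf18, Fgf7, Fgfr1op2, Fzd1, Fzd3, Fzd8, Fzd9, Gli1, Gli2, Hbegf, Igfbp7, Inhba, Inhbc, Jag2, Pdgfb, Pdgfrb, Sfrp1, Sfrp4, Smad6, Smad7, Tgfbr3 and Vegfa. Their single array values, with those of the 7, ran from 5.3 to 769.4 signal units with a median of 188.

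Several genes with textbook roles in wound repair were among these 36, and 4 of them were picked out after their values were seen. Vegfa, the main growth factor for blood vessels, read 94 to 408 with a median of 206, and its highest array was 3 days replicate 3. Fgf7, the keratinocyte growth factor made by dermal fibroblasts, read 49.8 to 314. Hbegf, a ligand of the EGF receptor, read 84.8 to 627, and only 3 days replicate 3 was above the median of all values. Egfr itself read 170 to 359. When the filter was left out, so that all 72 members were fitted, limma called 0 of these 36 in any comparison or by the F-test, and 9 had an unadjusted p under 0.05 in at least 1 comparison.

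**Figure D1:**
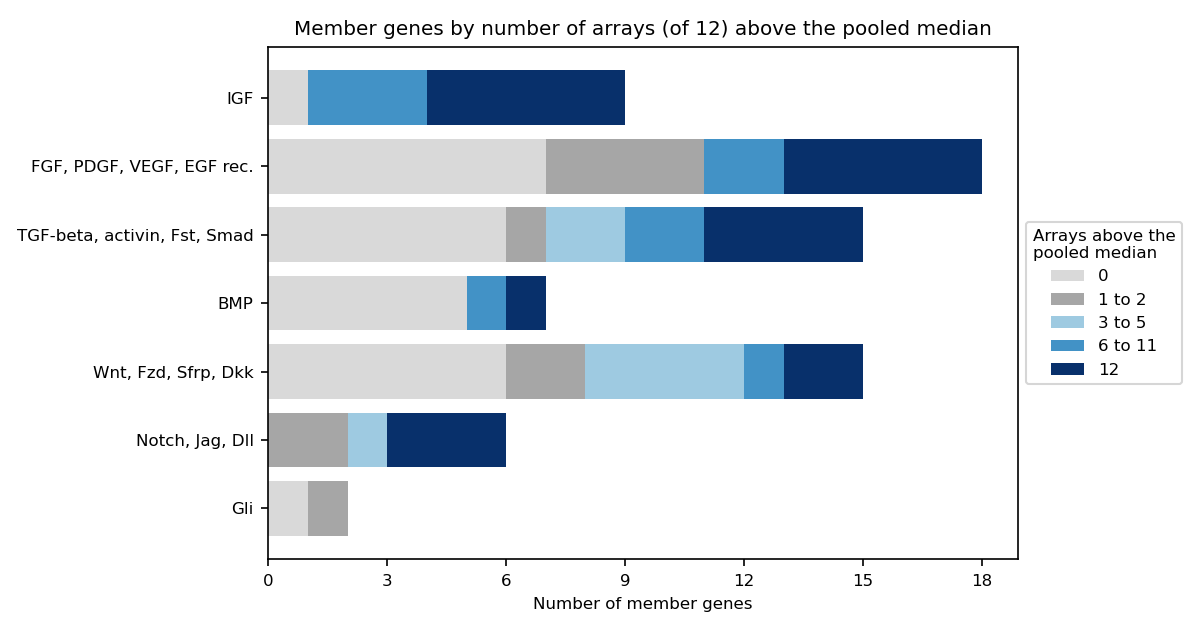
Number of member genes in each family (horizontal axis, count of genes), shaded by how many of the 12 arrays were above the median of all values (475.55 signal units). Grey segments are the 36 members near background, which made up 11 of the 18 FGF, PDGF, VEGF and EGF receptor genes, 5 of the 7 BMP genes and 1 of the 9 insulin-like growth factor genes.

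Of the 36 tested members, 20 were above the median of all values on all 12 arrays, and 7 (Dkk3, Fst, Fzd2, Notch2, Tgfb1, Wnt3 and Wnt4) on 3 to 5 arrays. A gene was called when its limma p, adjusted by Benjamini-Hochberg over all 3477 tested genes, was under 0.05, and differences are in log2 intensity with the SE of that fit. At 2 hours 2 members rose against 0 hours and 0 fell, where 4.0% and 1.67% of all genes were called higher and lower; 3 members were lower at an unadjusted p under 0.05. At 3 days 3 rose and 0 fell, against 8.89% and 4.40% of all genes, with 3 members lower at an unadjusted p under 0.05. At 14 days 3 rose and 1 fell, against 6.90% and 3.25%. From 2 hours to 3 days 2 rose and 1 fell, against 6.10% and 3.31%, and from 3 to 14 days 1 rose and 1 fell, against 1.29% and 2.10%. As shares of the 36 tested members the counts of called members ran from 0% to 8.33%, near the share of all genes called in the same comparison and direction. In both directions together, 8, 10 and 12 members differed from 0 hours at 2 hours, 3 days and 14 days by an unadjusted limma p under 0.05. Of all genes 22.3%, 29.8% and 28% did so.

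The F-test over the 4 time points called 11 of 36 members, or 30.6%, where it called 21.2% of all genes. Of these, 7 were also called in a pairwise comparison: Vegfd, Smad1, Tgfb1, Igfbp2, Igfbp4, Igfbp6 and Fstl1. The other 4, called by the F-test alone, were Tgfb3, Igfbp3, Fzd2 and Dkk3. The members' median log2 difference from 0 hours was 0.05 at 2 hours, 0.07 at 3 days and 0.31 at 14 days, and that of all genes was 0.05, 0.02 and 0.05. At 14 days 26 of 36 members had a positive difference, and the share of all genes with one was not counted. The 3 comparisons with 0 hours share the same 3 control arrays.

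**Figure D2:**
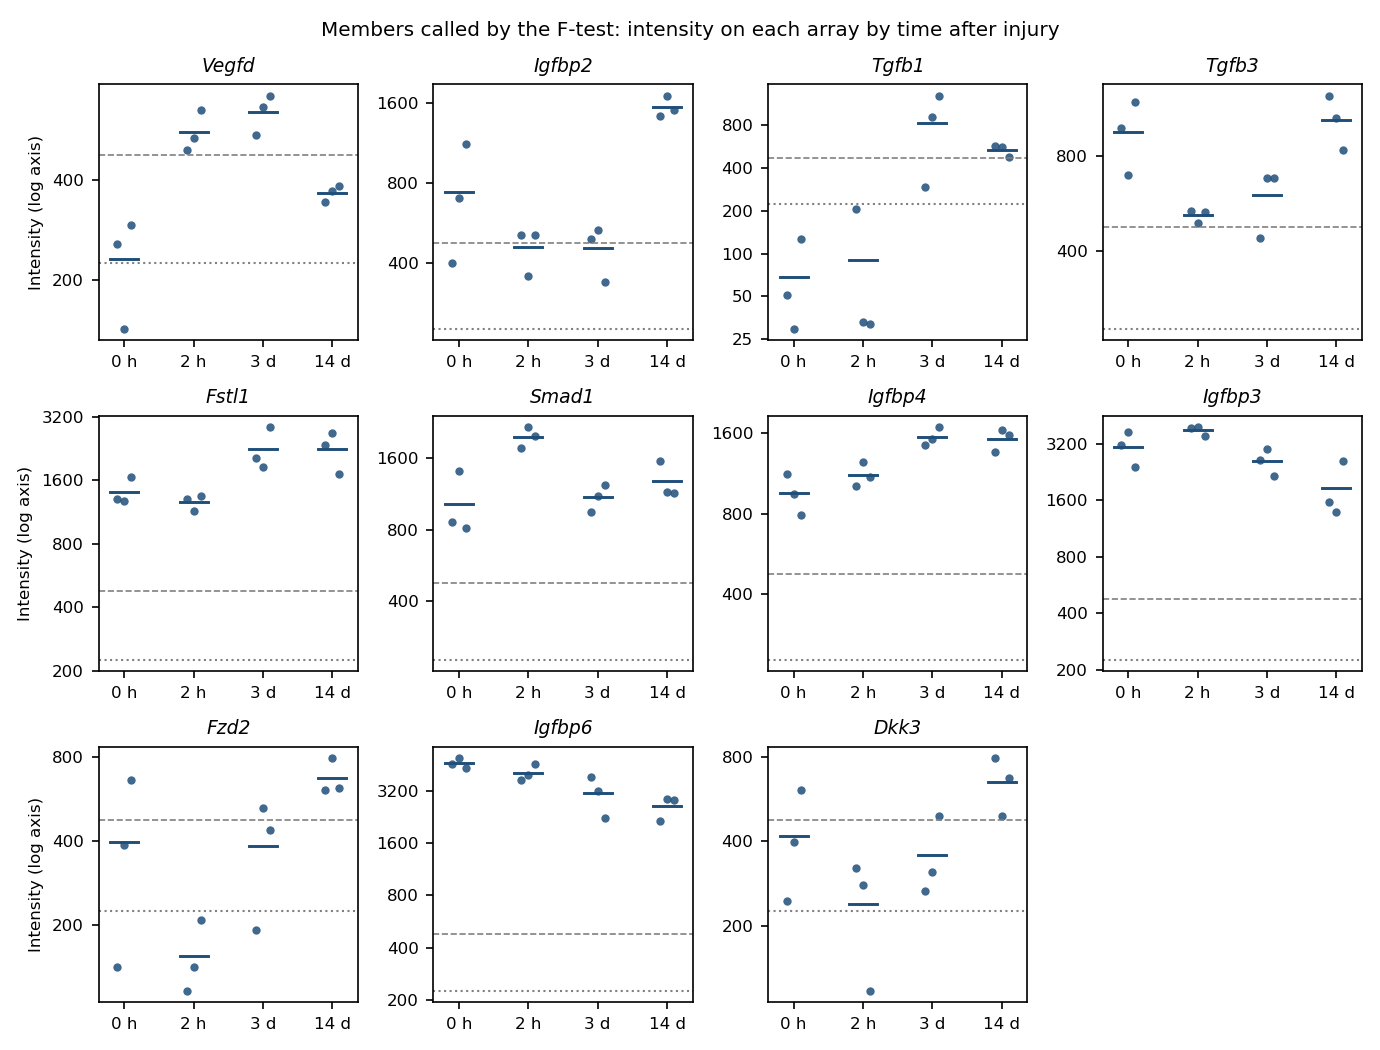
Intensity in signal units (vertical log axis, ranges differ between panels) on each array (points) and the mean of each time point (bars) for the 11 members called by the F-test, at 0 hours, 2 hours, 3 days and 14 days with 3 arrays each. The dotted line is the floor (225.375) and the dashed line the median of all values (475.55); all 6 Tgfb1 points at 0 and 2 hours lie under the floor, and the Vegfd points at 2 hours and 3 days all lie above those at 0 hours.

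**Figure D3:**
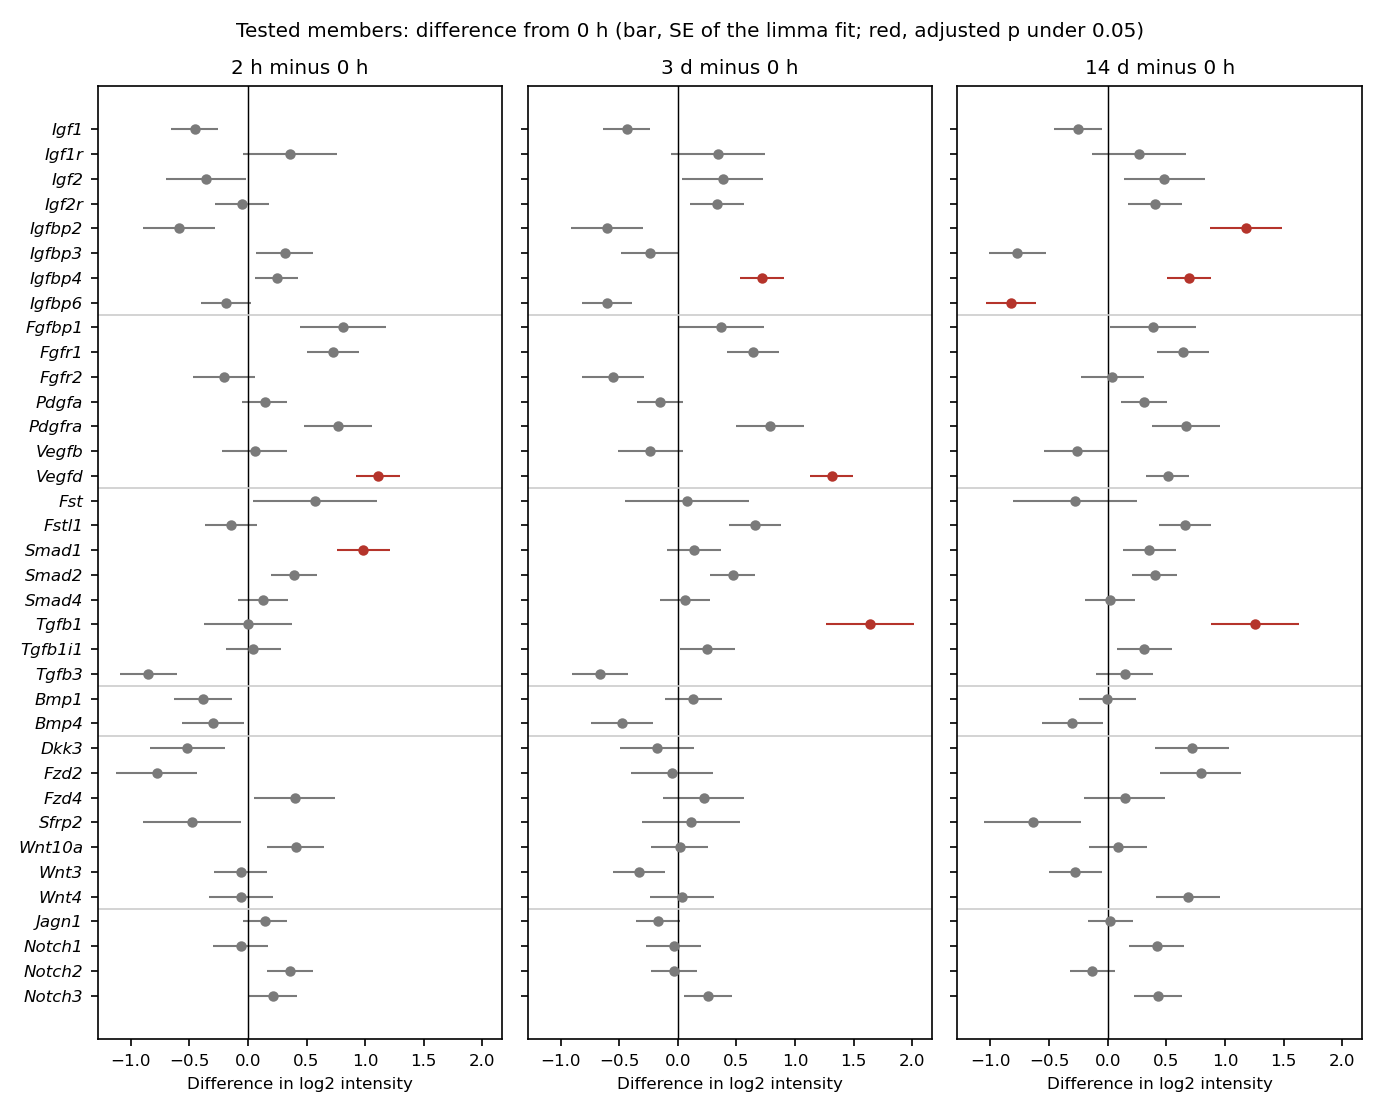
Difference in log2 intensity from 0 hours (horizontal axis) at 2 hours, 3 days and 14 days for the 36 tested members, with bars for the SE of the limma fit (n = 3 arrays per time point) and grey lines between families. Red points were called at an adjusted p under 0.05; they are 2 members at 2 hours, 3 at 3 days and 4 at 14 days, of which Igfbp6 is the one below 0.

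Promoters are shown for 3 called members: Vegfd and Smad1, the pair that rose at 2 hours, and Tgfb1, which rose at 3 days. Each is the 250 bases before the gene's start in RefSeq, build GRCm38.p6, written 5′ to 3′ along the gene's strand: Vegfd at chrX:164373272-164373521 on the plus strand, Smad1 at chr8:79399429-79399678 on the minus strand and Tgfb1 at chr7:25686752-25687001 on the plus strand. Capitals mark the only match found to the letters searched on both strands.
Vegfd: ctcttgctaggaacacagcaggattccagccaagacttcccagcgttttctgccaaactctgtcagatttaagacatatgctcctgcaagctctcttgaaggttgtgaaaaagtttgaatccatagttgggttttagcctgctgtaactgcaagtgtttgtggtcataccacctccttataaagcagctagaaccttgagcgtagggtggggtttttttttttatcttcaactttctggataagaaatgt
Smad1: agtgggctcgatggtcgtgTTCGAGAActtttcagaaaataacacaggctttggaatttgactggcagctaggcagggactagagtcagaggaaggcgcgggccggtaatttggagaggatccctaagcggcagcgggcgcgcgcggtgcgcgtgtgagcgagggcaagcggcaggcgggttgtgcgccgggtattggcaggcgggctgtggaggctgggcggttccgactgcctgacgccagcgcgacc
Tgfb1: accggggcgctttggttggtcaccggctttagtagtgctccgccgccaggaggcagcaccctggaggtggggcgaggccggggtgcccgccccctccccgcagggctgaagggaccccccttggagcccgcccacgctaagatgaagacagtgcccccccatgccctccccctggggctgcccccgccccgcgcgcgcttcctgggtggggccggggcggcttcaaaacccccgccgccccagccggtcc
The searches were for TGANTCA (AP-1), TTCNNGAA (the core of a heat shock element), CAGACA (the Smad box) and GACCACCCA (Gli). Smad1 held TTCNNGAA at bases -231 to -224 from the start, and 7.17% of all 32851 promoters of the table hold it in a window of this length. TGANTCA is in 6.75%, CAGACA in 17.1% and GACCACCCA in 0.225% of them, and the 3 windows shown held none of these. The GC content was 42.4% for Vegfd, 63.6% for Smad1 and 75.2% for Tgfb1, with a median of 52.4% over all promoters. A match is a description of letters and not of binding.

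Of the 9 insulin-like growth factor genes 8 were tested and 4 were called by the F-test, all of them binding proteins. The F-test called 21.2% of all genes. Igfbp2, a carrier of both IGF ligands, read 398.4, 700.5 and 1121.9 signal units on the 0 hours arrays, 507.6, 357.1 and 507.5 at 2 hours, 492.0, 530.7 and 339.6 at 3 days, and 1425.3, 1698.2 and 1502.2 at 14 days. The 14 days arrays were above all others, and the 0 hours arrays spread the most. Igfbp2 was 2.26-fold higher at 14 days than at 0 hours (log2 difference 1.18 ± 0.31, limma adjusted p = 0.0256) and 3.45-fold higher than at 3 days (1.79 ± 0.31, adjusted p = 0.00356). The first call was lost without 0 hours replicate 1 (0.79, adjusted p = 0.0973) and without 14 days replicate 1, 2 or 3 (1.23, 1.11 and 1.20, adjusted p = 0.0735, 0.0861 and 0.0607), while the second was kept in all 12 fits that left out an array. The hair follicle markers were also highest on the 14 days arrays, and their part in this result was not tested.

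Igfbp6, which binds IGF2 in preference to IGF1, went the other way. It read 4570.7, 4925.4 and 4301.7 at 0 hours, 3685.4, 3939.0 and 4532.4 at 2 hours, 3826.1, 3202.0 and 2236.3 at 3 days, and 2149.0, 2854.2 and 2826.3 at 14 days. Every 14 days array was below every 0 hours array. Igfbp6 fell by 0.83 ± 0.21 on the log2 scale at 14 days (1.77-fold, limma adjusted p = 0.0245); at 3 days the difference was -0.61 ± 0.21 with an adjusted p of 0.0718. The call at 14 days was lost without 0 hours replicate 1 (-0.83, adjusted p = 0.0648) or 14 days replicate 1 (-0.69, adjusted p = 0.115). Skeletal muscle markers were also lower at 14 days, with 8 of 17 called lower, and their part in this result was not tested.

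Igfbp4, another IGF carrier, gave opposite answers on its probe sets. The brighter, tested probe set read 1122.2, 947.1 and 789.4 at 0 hours, 1018.4, 1250.4 and 1095.4 at 2 hours, 1448.8, 1524.9 and 1690.7 at 3 days, and 1359.4, 1650.8 and 1578.0 at 14 days. All later arrays from 3 days on were above those of 0 and 2 hours. Igfbp4 rose by this probe set at 3 days (1.65-fold, 0.72 ± 0.19, limma adjusted p = 0.0198) and at 14 days (1.62-fold, 0.69 ± 0.19, adjusted p = 0.0288). The other probe set, with means of 722 ± 206, 709 ± 132, 535 ± 121 and 550 ± 131 (SD, n = 3), gave -0.42 at 3 days and -0.38 at 14 days, with adjusted p = 0.297 and 0.370 when it was the one tested, so the direction rests on the choice of probe set. The 3 days call was lost without 3 days replicate 2 or 3 (0.73 and 0.66, adjusted p = 0.0571 and 0.0973), and the 14 days call without 0 hours replicate 3 (0.56, adjusted p = 0.0676) or 14 days replicate 1, 2 or 3 (0.78, 0.64 and 0.67, adjusted p = 0.0631, 0.10 and 0.0764).

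Igfbp3, the main IGF carrier of blood, was called by the F-test (limma adjusted p = 0.0257) and in none of the 5 comparisons. It read 3135.6, 3686.3 and 2399.7 at 0 hours, 3889.3, 3916.9 and 3491.9 at 2 hours, 2609.4, 2995.8 and 2162.7 at 3 days, and 1558.0, 1379.8 and 2597.0 at 14 days. The 2 hours and 14 days arrays did not overlap, and the 0 hours arrays overlapped both. Its other probe set had means of 725 ± 300, 603 ± 237, 810 ± 159 and 865 ± 122 (SD, n = 3), which were lowest at 2 hours, so here too the probe sets differed in order. The F-test call was lost without 2 hours replicate 1, 2 or 3 (adjusted p = 0.0591, 0.0639 and 0.0540) or 14 days replicate 1 or 2 (0.0893 and 0.102).

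**Figure D4:**
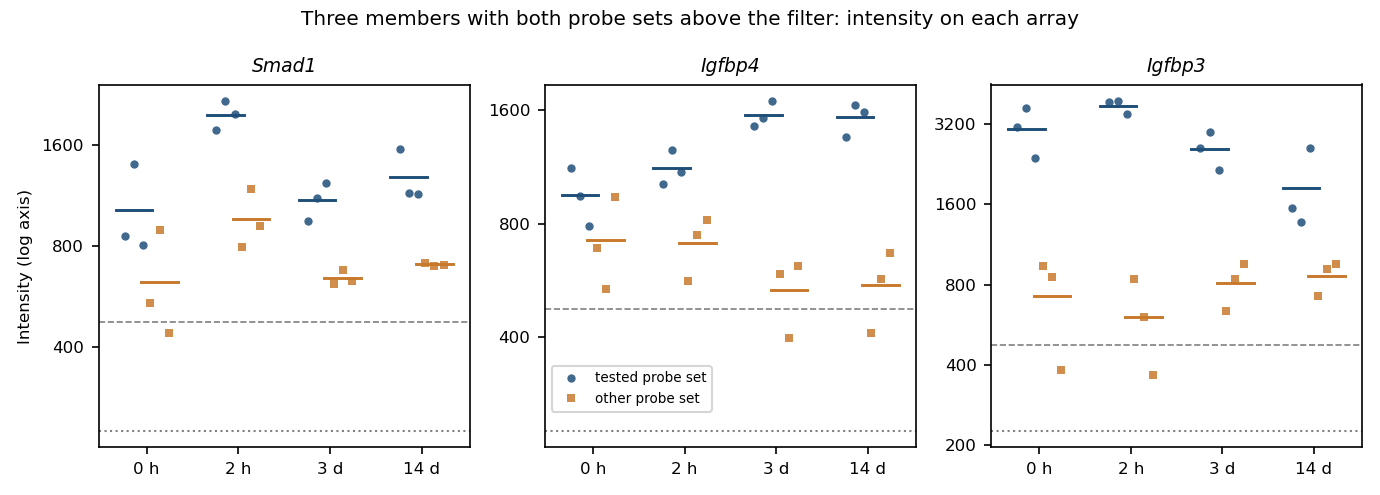
Intensity in signal units (vertical log axis) on each array for the tested (circles) and the other (squares) probe set of Smad1, Igfbp4 and Igfbp3, with bars for the mean of 3 arrays, the dotted line at the floor (225.375) and the dashed line at the median of all values (475.55). The probe sets of Smad1 are both highest at 2 hours, those of Igfbp4 move in opposite directions after 2 hours, and those of Igfbp3 differ in order.

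The ligands and receptors of this family passed no test. Igf1, the ligand made in skin mainly by dermal cells, had means of 1180 ± 255, 855 ± 126, 863 ± 109 and 976 ± 56.7 (SD, n = 3) in order of time, with a difference of -0.45 ± 0.20 at 2 hours (limma adjusted p = 0.199). Its other probe set had a difference of -0.54 at 2 hours. Igf2, the fetal ligand, had differences of -0.36 ± 0.34, 0.38 ± 0.34 and 0.48 ± 0.34 from 0 hours at the 3 later times. Igf2r, the receptor that takes up IGF2 for breakdown, had differences of -0.05, 0.34 and 0.40, each ± 0.23. Igf1r, the signalling receptor, read 359 to 1045 with a median of 748, and its F-test adjusted p was 0.845. Of 4 tested genes of insulin signalling outside the families (Akt1, Akt2, Grb2 and Htra1), Akt1, a kinase downstream of these receptors, rose at 3 days (1.22 ± 0.21, limma adjusted p = 0.00144) and at 14 days (1.10 ± 0.21, adjusted p = 0.00500). The shares of all genes called higher were 8.89% and 6.90% at these times.

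Of the 18 FGF, PDGF, VEGF and EGF receptor genes 7 were tested, and 1 was called by the F-test, which called 21.2% of all genes. Vegfd, the ligand of VEGF receptors known for the growth of lymphatic vessels, read 256.7, 143.1 and 293.3 signal units at 0 hours, 491.3, 536.2 and 648.7 at 2 hours, 547.6, 664.3 and 714.3 at 3 days, and 344.2, 371.2 and 384.5 at 14 days. The arrays of 2 hours and 3 days were above every other array, and those of 14 days were above those of 0 hours. Only the 6 arrays of 2 hours and 3 days were above the median of all values, so Vegfd passed the filter through those times. Vegfd was at least 2.16-fold higher at 2 hours than at 0 hours (1.11 ± 0.19, limma adjusted p = 0.00285) and at least 2.48-fold higher at 3 days (1.31 ± 0.19, adjusted p = 0.000511), the bounds arising because 0 hours replicate 2 was under the floor. Both calls were kept in all 20 alternatives that gave a value, with adjusted p up to 0.0457 and 0.00608.

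Vegfd fell by 0.80 ± 0.19 from 3 to 14 days (1.74-fold, limma adjusted p = 0.0276), and its difference of 0.51 ± 0.19 between 14 days and 0 hours had an adjusted p of 0.0898. The fall was no longer called without 3 days replicate 2 or 3 (-0.77 and -0.72, adjusted p = 0.125 and 0.141) or without 14 days replicate 1, 2 or 3 (-0.76, -0.81 and -0.84, adjusted p = 0.105, 0.115 and 0.0767). The 8 endothelial markers on the array had a mean log2 intensity of 8.96 to 9.34 at 0 hours, 8.76 to 9.03 at 2 hours, 9.03 to 9.21 at 3 days and 8.85 to 8.89 at 14 days. Eng and Cd34 were above the median of all values on all 12 arrays, Vwf on 11, Cdh5 on 9 and Tie1 on 1. The markers Emcn, Flt1 and Tek were above it on no array.

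The receptors Fgfr1 and Pdgfra had higher means at all later times but passed no test. Fgfr1, a receptor of fibroblasts and vessels, read 646.1, 766.7 and 728.9 at 0 hours, 1026.8, 1052.1 and 1517.4 at 2 hours, 890.4, 1150.7 and 1330.6 at 3 days, and 884.9, 1284.1 and 1211.0 at 14 days. All 9 later arrays were above the 3 of 0 hours. The differences were 0.73 ± 0.22, 0.64 ± 0.22 and 0.64 ± 0.22, with limma adjusted p of 0.0687, 0.0697 and 0.0755 and an F-test adjusted p of 0.0695. Pdgfra, the receptor that marks dermal fibroblasts, read 1213.5, 1420.8 and 661.6 at 0 hours and 1179.4 to 2162.4 on the later arrays, with differences of 0.77, 0.79 and 0.67, each ± 0.29, and adjusted p of 0.132, 0.0815 and 0.146. Fgfr2, whose epithelial form is the receptor for FGF7, had differences of -0.20, -0.55 and 0.04, each ± 0.26, on its tested probe set. A dimmer probe set that did not pass the filter had differences of 0.30, 0.24 and 0.96. Another was at or under the floor on 11 arrays.

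Fgfbp1, Pdgfa and Vegfb also passed no test, with F-test adjusted p of 0.363, 0.267 and 0.672. Pdgfa, the ligand of the PDGF alpha receptor, read 847 to 1479 over the 12 arrays with a median of 1187. Vegfb read 569 to 1558, with its highest and lowest values both among the 0 hours arrays. Of 6 tested receptor tyrosine kinase genes outside the families, 2 rose at 2 hours, where 4.0% of all genes rose. Dusp6, a phosphatase that switches off ERK and is induced by FGF signalling, was higher at 2 hours, 3 days and 14 days (0.96, 0.89 and 1.11, each ± 0.24, limma adjusted p = 0.0290, 0.0220 and 0.00983). The 2 hours call was lost without 0 hours replicate 2 or 3 or 2 hours replicate 1 or 2 (adjusted p up to 0.107), and the 3 days call without 0 hours replicate 2 or 3 days replicate 3 (up to 0.122). Kitl, the ligand of the receptor Kit on melanocytes and mast cells, rose at 2 hours (1.14 ± 0.20, adjusted p = 0.00325) and fell by 0.77 ± 0.20 from 2 hours to 3 days (adjusted p = 0.0239), a fall lost without any single 3 days array (up to 0.0730). Kitl was tested in 17 of the 21 alternatives, and in the others it did not pass the filter. Its rise was therefore not examined there, and which time points carried it through the filter was not counted.

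Of 15 TGF-beta, activin, follistatin and Smad genes 8 were tested and 4 were called by the F-test, which called 21.2% of all genes. The 4 were the ligands Tgfb1 and Tgfb3, the transducer Smad1 and the secreted protein Fstl1. Tgfb1, the ligand known for driving matrix production, read 50.8, 29.5 and 125.9 signal units at 0 hours, 206.6, 32.9 and 32.1 at 2 hours, 292.4, 917.3 and 1288.3 at 3 days, and 576.2, 563.8 and 479.3 at 14 days. All 6 early arrays were under the floor of 225.375 and all 6 late arrays above it, while the 3 days arrays spread widely. The 5 arrays above the median of all values were of 3 or 14 days, so Tgfb1 passed the filter only through those times. Tgfb1 was at least 3.11-fold higher at 3 days than at 0 hours (1.64 ± 0.37, limma adjusted p = 0.0105). Against 2 hours the fold and difference were the same by construction (limma adjusted p = 0.0139), because all 6 early arrays were set to the floor. Those 6 arrays therefore added no spread to the SE. With the floor at the 10th percentile the differences were 2.58 against 0 hours and 2.34 against 2 hours. At 14 days it was at least 2.39-fold higher than at 0 hours (1.26 ± 0.37, adjusted p = 0.0456).

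The size of the Tgfb1 difference at 3 days depended on single arrays. Without 3 days replicate 1 the difference from 0 hours was 2.27, and without 3 days replicate 3 it was 1.20 with a limma adjusted p of 0.0576. The call against 2 hours was lost without 2 hours replicate 3 (1.64, adjusted p = 0.0538) or 3 days replicate 2 or 3 (1.45 and 1.20, adjusted p = 0.0730 and 0.0741). The 14 days call was the least stable: it was lost in 10 of the 12 fits that left out an array, with differences of 1.21 to 1.34 over the 12, and in 5 of 8 other alternatives. The 2 that kept it left out 3 days replicate 1 or 3. With no filter on dim probe sets every Tgfb1 call was lost. The limma adjusted p was then 0.0703 at 3 days against 0 hours, 0.0845 against 2 hours, 0.147 at 14 days and 0.0714 by the F-test. The F-test call was also lost with the floor at the 40th percentile (limma adjusted p = 0.0504). The 14 tested macrophage markers also rose at 3 days, and their part in the Tgfb1 values was not tested.

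Tgfb3, the isoform linked to scarless repair in textbook accounts, had another course. It read 986.6, 696.6 and 1190.8 at 0 hours, 537.5, 491.8 and 530.4 at 2 hours, 438.7, 684.2 and 682.7 at 3 days, and 1246.1, 1057.9 and 836.5 at 14 days. The arrays of 2 hours and 3 days were all below those of 0 hours and 14 days. Tgfb3 was called by the F-test (limma adjusted p = 0.0164), and its differences from 0 hours were -0.85 ± 0.24 at 2 hours (adjusted p = 0.0527), -0.67 ± 0.24 at 3 days (adjusted p = 0.0779) and 0.14 ± 0.24 at 14 days. From 3 to 14 days the difference was 0.81 ± 0.24 with an adjusted p of 0.0972. The F-test call was kept in all 12 fits that left out an array.

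Smad1, which carries BMP signals to the nucleus, was highest at 2 hours. Its tested probe set read 861.0, 1411.0 and 808.4 at 0 hours, 1771.8, 2167.3 and 1982.6 at 2 hours, 953.3, 1110.7 and 1236.4 at 3 days, and 1559.4, 1152.4 and 1145.8 at 14 days. Every 2 hours array was above every other array. Smad1 was 1.98-fold higher at 2 hours than at 0 hours (0.98 ± 0.23, limma adjusted p = 0.0227) and fell by 0.85 ± 0.23 from 2 hours to 3 days (1.80-fold, adjusted p = 0.0318). The other probe set had means of 625 ± 237, 968 ± 198, 642 ± 33.3 and 706 ± 5.31 (SD, n = 3), with differences of 0.68 and -0.57 in the same comparisons. The rise was no longer called without 0 hours replicate 1 or 3 (0.88 and 0.84, adjusted p = 0.0639 and 0.0803) or 2 hours replicate 2 or 3 (0.92 and 0.98, adjusted p = 0.0808 and 0.0817), and the fall without any single 2 hours or 3 days array (-0.75 to -0.93, adjusted p from 0.0520 to 0.114).

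Fstl1, a secreted protein of connective tissue related to follistatin, read 1310.2, 1272.1 and 1662.0 at 0 hours, 1305.8, 1150.8 and 1357.5 at 2 hours, 2041.6, 1856.2 and 2866.5 at 3 days, and 2369.5, 2680.1 and 1726.0 at 14 days. All 6 late arrays were above all 6 early ones. Fstl1 rose from 2 hours to 3 days (1.75-fold, 0.80 ± 0.22, limma adjusted p = 0.0338), while its differences from 0 hours of 0.66 ± 0.22 at 3 days and at 14 days had adjusted p of 0.0607 and 0.0671. The rise was no longer called without 2 hours replicate 1, 2 or 3 (0.83, 0.73 and 0.85, adjusted p = 0.0722, 0.123 and 0.0847) or 3 days replicate 2 or 3 (0.93 and 0.62, adjusted p = 0.0545 and 0.185).

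The other transducers and the activin binder passed no test. Smad2, which carries TGF-beta and activin signals, read 355.4, 432.5 and 316.5 at 0 hours and 421.1 to 607.1 on the later arrays, with differences of 0.39, 0.47 and 0.40, each ± 0.19. Smad4, the partner shared by all these Smads, read 611 to 974 over the 12 arrays and had an F-test adjusted p of 0.949. Fst, the activin-binding follistatin, was high on single arrays: it read 740.9 and 747.4 on 2 hours replicates 2 and 3 and 888.9 on 3 days replicate 3, against 148.1 to 518.2 on the others. Tgfb1i1, an adhesion adaptor named for its induction by TGF-beta, read 800.1 to 1330.8 on all arrays except 14 days replicate 1, at 1774.1.

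Of 10 tested genes of the TGF-beta and BMP pathway outside the families, 3 were called in a comparison. The shares of all genes called were 6.90% higher at 14 days, and 6.10% higher and 3.31% lower from 2 hours to 3 days. Ski, a repressor of Smad transcription, rose at 14 days (0.71 ± 0.18, limma adjusted p = 0.0219), a call lost without 14 days replicate 1 or 2 (up to 0.0934). From 2 hours to 3 days Eng, a coreceptor of vessel cells, rose (0.71 ± 0.21, adjusted p = 0.0448) and Mstn, the muscle growth inhibitor, fell by 1.55 ± 0.44 (adjusted p = 0.0380). Either call was lost without any of several arrays, with adjusted p up to 0.166 for Eng and 0.168 for Mstn. The skeletal muscle markers were lower at 3 days as well, with 11 of 17 called against 0 hours, and their part in the Mstn values was not tested. Of 14 tested target genes of TGF-beta and BMP, 2 rose and 2 fell at 2 hours, 1 rose and 2 fell at 3 days, and 1 rose at 14 days. Of all genes 4.0% rose and 1.67% fell at 2 hours, 8.89% rose and 4.40% fell at 3 days, and 6.90% rose at 14 days. The median difference of the 14 target genes was 0.27, 0.14 and 0.26, against 0.05, 0.02 and 0.05 for all genes. Ccn2, a matricellular protein induced by TGF-beta, rose at 2 hours (1.74 ± 0.37, adjusted p = 0.0138). Col1a2, a chain of type I collagen, fell by 1.61 ± 0.19 at 2 hours and by 1.27 ± 0.19 at 3 days (adjusted p = 0.000343 and 0.000703). Both target genes that fell at these times are also fibroblast markers, so their falls are counted in both lists. Postn, a matrix protein of healing wounds, rose at 14 days (2.09 ± 0.33, adjusted p = 0.00174). The Ccn2 call was lost without 0 hours replicate 3 or 2 hours replicate 1 or 3 (adjusted p up to 0.0769).

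Of 7 BMP genes 2 were tested and limma called 0 of them, with 0 at an unadjusted p under 0.05 in any comparison. Bmp4, a ligand of hair follicle and dermis, read 659.3, 508.3 and 669.4 at 0 hours and 269.4 to 604.6 on the later arrays, with differences of -0.30, -0.48 and -0.30, each ± 0.26. Bmp1, the procollagen protease, had differences of -0.38, 0.13 and 0.00, each ± 0.24, on its tested probe set. Its other probe set also passed the filter and had differences of -0.71, 0.30 and 0.59. On both probe sets every 3 days array was above every 2 hours array. The nearest were 1059.4 against 985.3 on the tested and 407.6 against 403.9 on the other. The means of log2 intensity at these times were 1.43-fold apart on the tested probe set, with a limma adjusted p of 0.203, and 2.01-fold on the other. The share of all genes without such overlap was not counted. The receptors Bmpr1a and Bmpr2 and the ligands Bmp2 and Bmp8a were near background.

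Of 15 Wnt, Frizzled, Sfrp and Dkk genes 7 were tested. The F-test called 2 of them, where it called 21.2% of all genes. Limma called 0 in any comparison, with 3 at an unadjusted p under 0.05 in at least 1 comparison. Fzd2, a Wnt receptor, read 142.1, 386.0 and 663.4 at 0 hours, 116.4, 142.0 and 208.5 at 2 hours, 192.6, 527.2 and 436.9 at 3 days, and 609.8, 792.8 and 620.9 at 14 days. The 2 hours arrays were all under the floor, the 14 days arrays were above those of 3 days, and the 0 hours arrays overlapped those of every other time. Its F-test adjusted p was 0.0276, and the difference from 0 hours at 14 days was 0.79 ± 0.35 (limma adjusted p = 0.150). The F-test call was lost without 2 hours replicate 1, 2 or 3 (adjusted p = 0.0645, 0.0711 and 0.0732) or 14 days replicate 1, 2 or 3 (0.0576, 0.0904 and 0.0572). It was also lost with no filter on dim probe sets (F-test adjusted p = 0.127). The 5 arrays above the median of all values included every 14 days array, so Fzd2 passed the filter largely through that time.

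Dkk3, a secreted protein of the Dickkopf family, read 244.4, 396.3 and 612.2 at 0 hours, 321.2, 280.2 and 117.1 at 2 hours, 265.9, 310.2 and 493.2 at 3 days, and 792.8, 494.2 and 671.9 at 14 days. The 14 days arrays were above those of 2 hours and 3 days, the nearest being 494.2 against 493.2, and overlapped those of 0 hours. The F-test adjusted p was 0.0493, and the limma difference from 3 to 14 days was 0.90 ± 0.32 (adjusted p = 0.194). The call was lost in 9 of the 12 fits that left out an array, where its adjusted p ran from 0.0207 to 0.161, and in all 8 other alternatives. The 3 that kept it left out 0 hours replicate 1 or 3 or 3 days replicate 3.

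The Wnt ligands gave no call. Wnt4, a ligand made in skin epithelium, read 754.4, 550.1 and 550.0 at 14 days and 208.1, 562.6 and 432.0 at 0 hours, a difference of 0.69 ± 0.27 with a limma adjusted p of 0.118. Wnt10a, a ligand of hair follicle and epidermis, had differences of 0.41, 0.02 and 0.09, each ± 0.24. Sfrp2, a secreted Wnt-binding protein of the dermis, read 1541.9 to 1646.9 at 0 hours and spread from 1247.6 to 2808.4 at 3 days and from 496.7 to 2069.3 at 14 days, so its difference of -0.64 ± 0.42 at 14 days had an adjusted p of 0.343. Wnt3 and Fzd4 had F-test adjusted p of 0.530 and 0.781. Of 12 tested Wnt pathway genes outside the families 2 rose at 14 days, where 6.90% of all genes rose. They were Ccnd1, the G1 cyclin and a Wnt target (1.04 ± 0.27, limma adjusted p = 0.0235), and Tle3, a corepressor of the Wnt transcription factors (0.65 ± 0.18, limma adjusted p = 0.0313). The Ccnd1 call was lost without 0 hours replicate 1 or 14 days replicate 2 or 3 (adjusted p up to 0.0973), and the Tle3 call without 0 hours replicate 1 or any single 14 days array (up to 0.134).

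Of 6 Notch, Jagged and Delta genes 4 were tested and limma called 0, with 0 at an unadjusted p under 0.05. Notch1, the receptor that promotes keratinocyte differentiation, read 1062.7, 1265.7 and 784.6 at 0 hours and 1045.9, 1647.1 and 1461.7 at 14 days, a difference of 0.42 ± 0.24 with an adjusted p of 0.266. Notch3, a receptor of vascular smooth muscle, had differences of 0.22, 0.26 and 0.43, each ± 0.20, and an adjusted p of 0.183 at 14 days. Notch2 had differences of 0.36, -0.03 and -0.13, each ± 0.19. Jagn1 had an F-test adjusted p of 0.566. Of 7 tested Notch pathway genes outside the families, Dlk1, a Delta-like membrane protein of preadipocytes, fell by 0.95 ± 0.20 at 3 days (limma adjusted p = 0.00738) and rose by 0.81 ± 0.20 from 3 to 14 days (adjusted p = 0.0384). Hes1, a transcriptional target of Notch, rose from 3 to 14 days (0.87 ± 0.22, adjusted p = 0.0425). The shares of all genes called were 4.40% lower at 3 days and 1.29% higher from 3 to 14 days. Leaving out any single 14 days array ended both calls from 3 to 14 days, as did other single arrays, with adjusted p up to 0.209 for Dlk1 and 0.192 for Hes1.

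The hedgehog members were Gli1 and Gli2, transcription factors at the end of the pathway, and both lay near background. Gli1, picked out after its values were seen because it is itself a hedgehog target, read 19.2, 253.9 and 440.4 at 0 hours, 150.7, 15.3 and 96.9 at 2 hours, 82.3, 100.9 and 112.2 at 3 days, and 366.4, 610.6 and 337.8 at 14 days. The 14 days arrays were above every array of 2 hours and 3 days, all 6 of which were under the floor, and overlapped those of 0 hours. With no filter Gli1 had a difference of 0.91 from 3 to 14 days with a limma adjusted p of 0.208. Of 3 tested pathway genes outside the families, Ptch1, the hedgehog receptor and a target of the Gli factors, rose at 14 days against 0 hours (1.13 ± 0.20, adjusted p = 0.00352) and against 3 days (1.24 ± 0.20, adjusted p = 0.00245). The shares of all genes called higher were 6.90% at 14 days against 0 hours and 1.29% against 3 days. Ptch1 was tested in 15 of the 21 alternatives, which kept both calls, and in the others it did not pass the filter. Those others therefore say nothing of its rises, and which time points carried it through the filter was not counted. The hair follicle markers were at their highest at 14 days too, and their part in the Gli1 and Ptch1 values was not tested.

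Among the 72 members, 3 days replicate 3 was the highest of the 12 arrays for 14, whereas 3 days replicates 1 and 2 were the highest for 1 each. The array of 14 days replicate 2 was highest for 10, as was 0 hours replicate 3, and the remaining 7 arrays were highest for 3 to 9 members. Tested members were 7 of the 14 for 3 days replicate 3, 8 of the 10 for 14 days replicate 2 and 2 of the 10 for 0 hours replicate 3. The rest lay near background, and the same count over all genes was not made. Tgfb1, Fst, Sfrp2, Hbegf and Vegfa were among those that peaked on 3 days replicate 3. Without that array 1 member was called at 3 days in place of 3, and without 3 days replicate 1 there were 6. The count at 14 days was 0 without 14 days replicate 1, with 13 members at an unadjusted p under 0.05 in the same limma fit, and 1 without 14 days replicate 2 or 0 hours replicate 1.

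Single arrays moved the other counts too. At 2 hours the count was 4 without 0 hours replicate 2 and 1 without 0 hours replicate 1 or 3 or 2 hours replicate 2 or 3, and at 3 days it was 5 without 0 hours replicate 2. From 2 hours to 3 days limma called 1 member without 2 hours replicate 1 or 2 and 0 without 2 hours replicate 3 or 3 days replicate 2 or 3, where 3, 5 and 4 members had an unadjusted p under 0.05. From 3 to 14 days 1 member was called without 3 days replicate 2 or 3 or any single 14 days array. The F-test called 5 members without 2 hours replicate 2 or 14 days replicate 2, 6 without 2 hours replicate 3 and 7 without 14 days replicate 1.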

How the data were processed

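Skin samples were grouped by the time point in their labels. The deposited intensity values, 1 per probe set and array, were on a linear scale per the file headers and values; the authors' software and scaling are not given in the sources used. No scaling was added, because 2% trimmed means differed from their mean by no more than 8.56% (limit 10%). Values under 225.375 (25th percentile) were set to it, and log2 taken. Kept were probe sets that name 1 gene and exceed the pooled median (475.55) on 3 or more arrays, with the brightest taken per gene. Limma 3.58.1 (R 4.3.3) fitted all 12 arrays with 1 coefficient per time point (8 residual, 6.64 prior degrees of freedom). An exact permutation test of 3 against 3 arrays cannot go below p = 0.1. A fold against a group with an array under the floor is a lower bound. The fit was tested on simulated data. Levels are not compared between genes. The number of arrays limits the precision.

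Named genes are all called members, up to 3 more per family and up to 3 called genes per pathway list by F-test p; the other 8 tested members are named outside this rule, with a range or F-test p, so that every member is accounted for, and members near background given with values were picked after those were seen. The members and lists were chosen with earlier results of these data known. Python 3.11.15, pandas 2.3.3 and matplotlib 3.10.9 made the tables and plots. RefSeq gave the same symbol for all 72 members. Alternatives changed normalization, floor, filter, probe set, variance model, replicate block and each array.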

Additional observations from a re-analysis of the deposited data

How the results depend on the processing

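Median scaling gave 2 called members at 14 days in place of 4. With no filter on dim probe sets, which tests all 72 members, the counts were 1 at 2 hours, 1 at 14 days, 0 from 2 hours to 3 days (limma, with 5 at an unadjusted p under 0.05), 1 from 3 to 14 days and 3 by the F-test. A filter at the 75th percentile, which leaves 19 members tested, gave 1 from 3 to 14 days and 7 by the F-test. From 3 to 14 days the count was also 1 with the floor at the 10th percentile and with trended variance. Igfbp4 reversed with the probe set of highest variance, to -0.42 at 3 days and -0.38 at 14 days. Leaving out each array in turn gave 1 to 4 called members at 2 hours, 1 to 6 at 3 days, 0 to 5 at 14 days, 0 to 3 from 2 hours to 3 days, 1 to 3 from 3 to 14 days and 5 to 11 by the F-test; where the count from 2 hours to 3 days was 0 by limma, 3 to 5 members had an unadjusted p under 0.05. Only the Vegfd rises at 2 hours and 3 days and the F-test calls of Vegfd and Igfbp2, among the calls of members, were kept in every alternative that gave a value.

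Deviations of arrays with the same replicate number correlated above 0.1 in 2 of 18 pairs (median -0.066). With so few arrays per time point, these correlations cannot show whether arrays with the same number had a common origin. The labels do not say. With the replicate block the counts were 2, 4, 4, 2 and 2 in the 5 comparisons and 10 by the F-test, and 9 of these 10 were among the 11 of the fit without it. The causes of these changes were not tested. Of the 72 members 36 lie near background, so the arrays do not show whether those genes changed.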
